A study of Mus musculus with 2 samples.

Results

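The gene 1500015O10Rik, named Ecrg4 in RefSeq, encodes augurin, and it was followed as 1 of 31057 features through 6659 cells kept from 7328 barcodes. The gene was chosen by its UMI levels across these same cells, and the cells were placed in classes by their own counts of Cyp11b2, Cyp11b1, Aldh1a1 and leukocyte genes. Its levels are therefore given as a description, without a test. The cells came from adrenal glands of male mice aged 15 weeks, of the genotype labelled WT, SF1-Cre ; Rosa mTmG. SF1-Cre is driven by a gene of the steroidogenic lineage, and Rosa mTmG is a reporter that switches from a red to a green membrane protein where Cre has acted. The 26 adrenals of the study were sorted as single cells positive for the DNA dye Ruby and negative for the dead-cell dye DAPI, with no gate on the reporter named, and went into 2 libraries of 1 group, made with a droplet 3′ kit. The labels of the libraries differ only in the library name and a tag at the end of the title, and no treatment is listed.

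Augurin is a small protein that enters the secretory pathway through a signal peptide and can be cut by furin-like and thrombin-like proteases into shorter peptides. It has been studied as a peptide hormone candidate of endocrine glands and the choroid plexus, and as a gene that is silenced in several human tumours. Scavenger receptors and the lipopolysaccharide receptor complex of innate immune cells have been reported to bind it. In the adrenal cortex, Cyp11b2 encodes the aldosterone synthase of the outer zona glomerulosa. Cyp11b1 encodes the enzyme that makes corticosterone in the zona fasciculata below it. Aldh1a1 encodes a retinaldehyde dehydrogenase.

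In mm10 (GENCODE vM21), 1500015O10Rik (ENSMUSG00000026051) lies on the plus strand of chromosome 1 from 43730602 to 43742578, with 1 transcript of 4 exons. Its coding length of 444 bases corresponds to 148 residues. The antisense gene Gm29155 overlaps it, and the sources used here do not say whether the counting used strand. Gm29155 had 17 UMIs in the kept cells of library 1 and 3 in library 2, against 844980 and 161988 for 1500015O10Rik. The nearest protein-coding genes are Nck2, with a gap of 160086 bases, and Uxs1, with a gap of 4387 bases. The 250 bases before its start in RefSeq (GRCm38.p6, chr1:43730352-43730601, plus strand, 5′ to 3′) are shown as the regulatory sequence next to the gene, in lower case because no searched motif was found in it.
Ecrg4 upstream sequence: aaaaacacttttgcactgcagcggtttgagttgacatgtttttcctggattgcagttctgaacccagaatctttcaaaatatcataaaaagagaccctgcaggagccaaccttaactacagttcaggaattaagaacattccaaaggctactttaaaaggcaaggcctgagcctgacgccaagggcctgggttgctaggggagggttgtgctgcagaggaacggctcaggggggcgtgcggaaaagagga
Both strands were searched for 3 exact motifs. The SF1 half-site AAGGTCA was in 4.08% of 32851 promoter windows of this length, the cAMP response element TGACGTCA in 1.55% and the TATA box TATAAA in 12.4%. These letters are not in this window.

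The deposited matrix of library 1 had 92905273 UMIs over 5040 barcodes, and that of library 2 had 28023733 over 2288. Filters left 4689 cells (median depth 18198 UMIs) and 1970 cells (14817), and 4 barcodes occurred in both libraries. Nothing says whether the libraries came from separate animals, so the spread between them may be technical. The steroidogenic label was checked on Star, Cyp11a1, Hsd3b1 and Cyp21a1, which had to sum to 1000 CPM in a cortical cell and all had UMIs in each cortical class. Their summed level lay between 12949 CPM (counts scaled to the total UMIs of the same cells, where 10000 CPM is 1% of them) in cells low in both Cyp11b genes of library 2 and 22295 CPM in Aldh1a1-high cells of library 2. The 5 medulla markers (Th, Dbh, Pnmt, Chga and Chgb) summed to at most 0.744 CPM in any cortical class. Cells with at least 3 medulla, endothelial or stromal markers at a sum of 500 CPM had been set aside, as had those under the steroidogenic limit. Together these limits set aside 1 cell of classed depth in each library. The sums thus follow in part from the limits. Against the label, 93 and 77 kept cells carried leukocyte genes.

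1500015O10Rik was among the most abundant RNAs of Cyp11b2-high cells and lower, class by class, in cells with more Cyp11b1 and with Aldh1a1. In Cyp11b2-high cells (at least 300 CPM of Cyp11b2 and under 300 of Cyp11b1) it stood at 13661 CPM in library 1 (exact Poisson 95% interval 13558 to 13765) and 10309 in library 2 (10191 to 10428). These intervals cover counting error only. It took 1.37% and 1.03% of all UMIs of those cells and was the feature with the third (library 1) and the fifth (library 2) highest UMI count. Ranks compare 3′ tag counts, which were not divided by gene length. Malat1, mt-Atp6 and mt-Co1 were the other features at the top in both libraries.

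Cells low in both Cyp11b genes (each under 300 CPM) were the largest class, with 3160 and 991 cells. They had 10850.4 CPM in library 1 and 7122 in library 2. They carried 80.2% of all 1500015O10Rik UMIs in library 1 and 70.0% in library 2 while making up 67.4% and 50.3% of the kept cells. In all, 14 and 8 cells reached 300 CPM of both Cyp11b2 and Cyp11b1, and there the gene stood at 10357 and 6180.1 CPM. The means of these neighbours in the order were 8986 ± 2637 and 8269 ± 2954 CPM (SD, n = 2). Within a library the class with both was the lower one, by a log2 difference of -0.07 in library 1 and -0.20 in library 2.

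Cyp11b1-intermediate cells (300 to under 1000 CPM of Cyp11b1, 491 and 161 cells) had 6810.45 CPM in library 1 and 3687 in library 2. Cyp11b1-high cells (at least 1000 CPM, 433 and 259 cells) had 2797 and 986. Aldh1a1-high cells (at least 200 CPM of Aldh1a1, 34 and 31 cells) had 1422 (1332 to 1517) and 53.6 (35.3 to 78.0). The order of the 6 cortical classes was the same in both libraries, and in each class library 1 was the higher one. Reads of the close paralogs Cyp11b1 and Cyp11b2 may be shared, which leaves the class limits uncertain.

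Set against Cyp11b2-high cells of the same library, the level in cells low in both genes was 1.26-fold lower in library 1 and 1.45-fold lower in library 2 (log2 difference -0.43 ± 0.14 SD, n = 2 libraries). Cyp11b1-intermediate cells were 2.01-fold and 2.80-fold lower (-1.24 ± 0.34). For Cyp11b1-high cells the values were 4.88-fold and 10.5-fold (-2.84 ± 0.78). For Aldh1a1-high cells they were 9.61-fold and 192-fold, so that the mean of -5.43 carried an SD of 3.06. The libraries had one direction in each of these differences and unequal size.

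**Figure D1:**
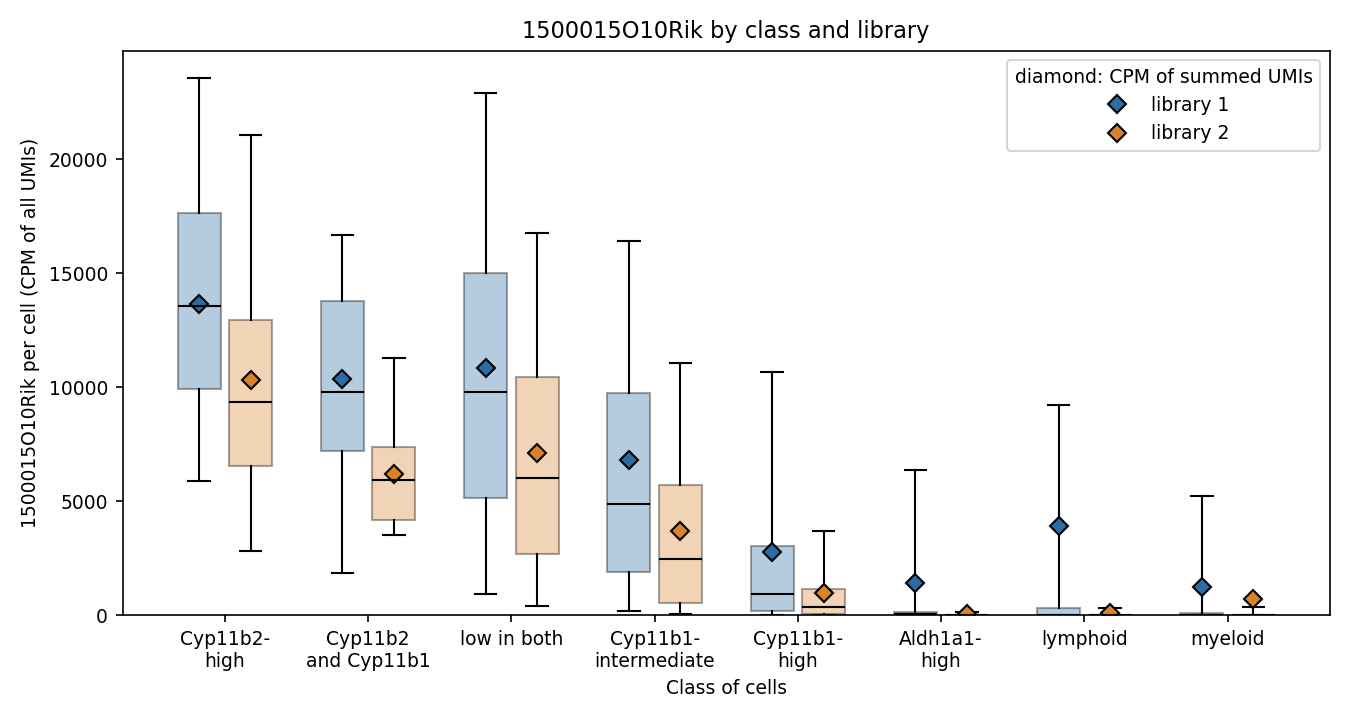
Level of 1500015O10Rik per cell (CPM, linear axis) in 6 cortical and 2 leukocyte classes of library 1 (blue) and library 2 (orange). Boxes span the middle 50% of cells with the median as a line, whiskers reach the 5th and 95th percentiles, and diamonds are the CPM of summed UMIs; the medians run from 13584 and 9368 CPM in Cyp11b2-high cells to 49.7 and 0 in Aldh1a1-high cells.

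The ratio of library 1 to library 2 widened along the same order, from 1.33 in Cyp11b2-high cells through 1.52 in cells low in both genes and 1.85 in Cyp11b1-intermediate cells to 2.84 in Cyp11b1-high and 26.5 in Aldh1a1-high cells. Cyp11b1 itself averaged 1941 CPM in the Cyp11b1-high class of library 1 and 2853 in that of library 2, so the class was not filled alike. Among cells with 1000 to under 2000 CPM of Cyp11b1, 1500015O10Rik stood at 3672 CPM in library 1 and 1637 in library 2. From 2000 to under 4000 CPM it stood at 1179 and 718, and at 4000 CPM or more library 2 was the higher one, with 383 against 271. The ratio of library 1 to library 2 was larger from 1000 to under 2000 CPM than under 100 CPM of Cyp11b1 (11184 and 7460 CPM). It was smaller again in the bins from 2000 CPM up. How far the filling of the class accounts for the ratio between the libraries was not tested. Non-leukocyte cells with under 5000 UMIs, which were left out of the cortical classes, had 6622 and 6955 CPM, with a ratio of 0.952.

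Along Cyp11b1 the level was lower in each successive bin. With Aldh1a1-high cells and cells at or above 300 CPM of Cyp11b2 set aside, cells under 100 CPM of Cyp11b1 had 11184 and 7460.01 CPM of 1500015O10Rik. Those from 100 to under 300 CPM had 8451 and 4203. Cells from 2000 to under 4000 CPM had 1179 and 718, and cells at 4000 CPM or more (23 and 50 cells) had 271 and 383. Each of the 6 bins was lower than the one before it in both libraries.

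Along Cyp11b2 a step stood between the lowest bin and the others. Among cells under 300 CPM of Cyp11b1, those under 100 CPM of Cyp11b2 had 9942 CPM in library 1 and 6492 in library 2. From 100 to under 200 CPM of Cyp11b2 the gene stood at 13481 and 9687. At 300 to under 450 CPM it stood at 14068 and 10702, and at 600 CPM or more (39 and 31 cells) at 12480 and 9976. The 5 bins from 100 CPM up lay between 12480 and 14068 CPM in library 1 and between 8907 and 10702 in library 2, with no upward order. A Cyp11b2 level under 100 CPM rests on 1 UMI or none in a cell of median depth.

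Along Aldh1a1, among cells with at least 300 CPM of Cyp11b1, cells without an Aldh1a1 UMI (918 and 417) had 5212 and 2166 CPM. Cells with an Aldh1a1 UMI but under 200 CPM, 20 and 11 in number, had 3874 and 214. At 3000 CPM or more (13 and 19 cells) the level was 749 and 6.71. In library 2 no cell from 1000 to under 3000 CPM of Aldh1a1 (5 cells) had a UMI of the gene.

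**Figure D2:**
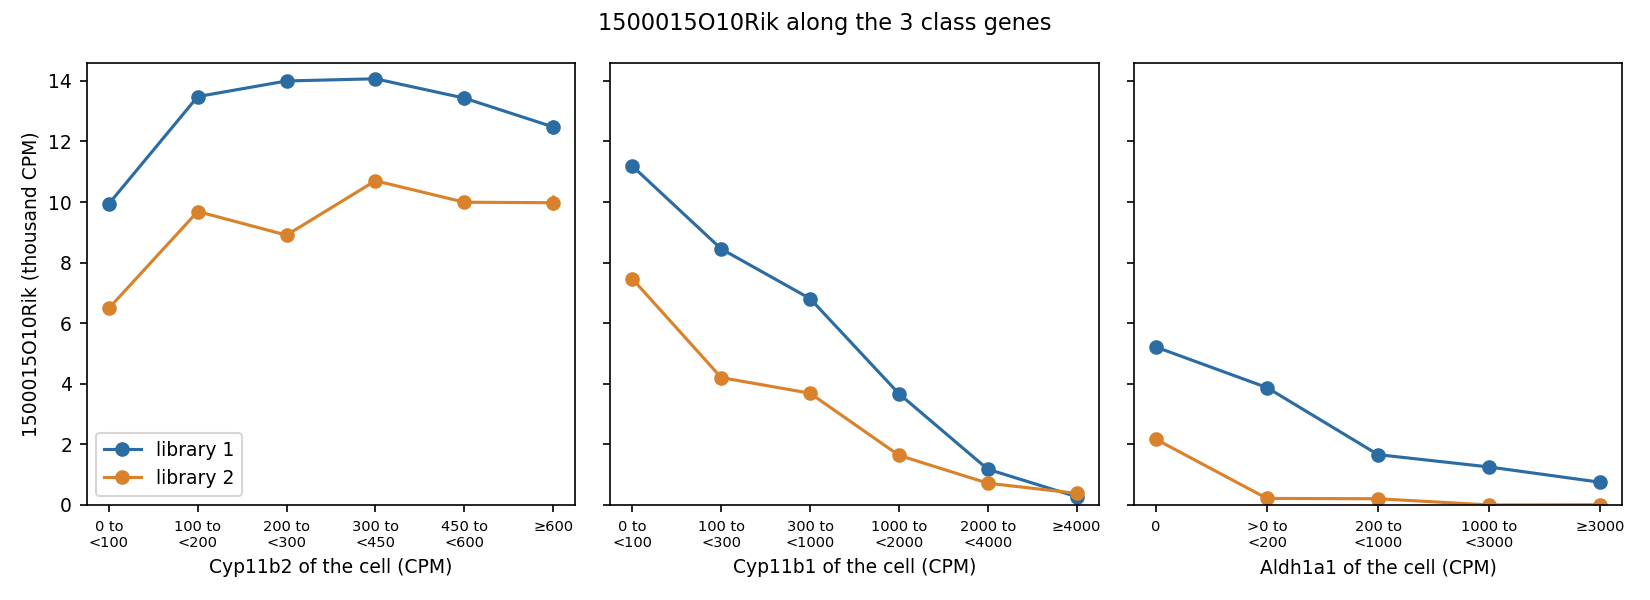
Level of 1500015O10Rik (in units of 1000 CPM of summed UMIs) in cortical cells binned by their Cyp11b2, Cyp11b1 or Aldh1a1 level (CPM), for library 1 (blue) and library 2 (orange); vertical bars, mostly hidden by the points, are exact Poisson 95% intervals. The lowest Cyp11b2 bin stands under the other 5, and the level is lower in each successive Cyp11b1 bin down to 271 and 383 CPM; the Aldh1a1 bins above 0 hold 5 to 20 cells each.

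The values just inside and just outside the class limits were as follows. Within 20% below and above 300 CPM of Cyp11b2 the gene stood at 13730 and 14421 CPM in library 1 (117 and 84 cells) and at 8558 and 10697 in library 2 (40 and 33 cells). Around 300 CPM of Cyp11b1 the values were 8185 below and 7809.7 above in library 1, and 3741 and 4572 in library 2. Around 1000 CPM of Cyp11b1 they were 5911 and 5118, and 2372 and 1779. Around 200 CPM of Aldh1a1 there were 2 cells below and 1 above in library 1, at 179 and 137 CPM, and 3 below and none above in library 2, at 77.4.

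Single cells spread widely around these levels. In Cyp11b2-high cells of library 1 the lowest cell had 576 CPM, the median cell 13584 and the highest 34742, and in library 2 these were 63.5, 9368 and 27652. In cells low in both genes the range ran from 0 through medians of 9804 and 6005 to 54064 and 30126 CPM. In Cyp11b1-high cells the median cell had 935 and 379.7 CPM, well under the levels of the summed UMIs, and the 95th percentile was 10687 and 3704. A minority of cells thus held most of the UMIs of that class.

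Thinning every cell to 5000 UMIs put the classes at one depth. A UMI of 1500015O10Rik was then found in 100% of 233 Cyp11b2-high cells of library 1 (exact Clopper-Pearson 95% interval 98.4 to 100) and 99.3% of 151 in library 2 (96.4 to 100). The unthinned share was 100% in both. In cells low in both genes it was 98.9% and 97.3%, in Cyp11b1-intermediate cells 95.5% and 88.8%, and in Cyp11b1-high cells 78.5% (74.3 to 82.3) and 67.2% (61.1 to 72.9). Unthinned, the last shares were 91.0% and 79.9%. Aldh1a1-high cells had a UMI in 32.4% (17.4 to 50.5) and 9.68% (2.04 to 25.8), against 58.8% and 19.4% unthinned.

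The number of UMIs per thinned cell separated the classes further. At least 50 UMIs were found in 75.5% of Cyp11b2-high cells in library 1 and 43.7% in library 2. In cells low in both genes these shares were 49.5% and 27.2%, in Cyp11b1-high cells 5.31% and 0.772%. Under 5 UMIs were found in 0.429% and 0.662% of Cyp11b2-high cells, in 5.16% and 10.8% of cells low in both genes, and in 49.7% and 67.2% of Cyp11b1-high cells. Among Aldh1a1-high cells, 29 of 34 in library 1 and 31 of 31 in library 2 had under 5.

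**Figure D3:**
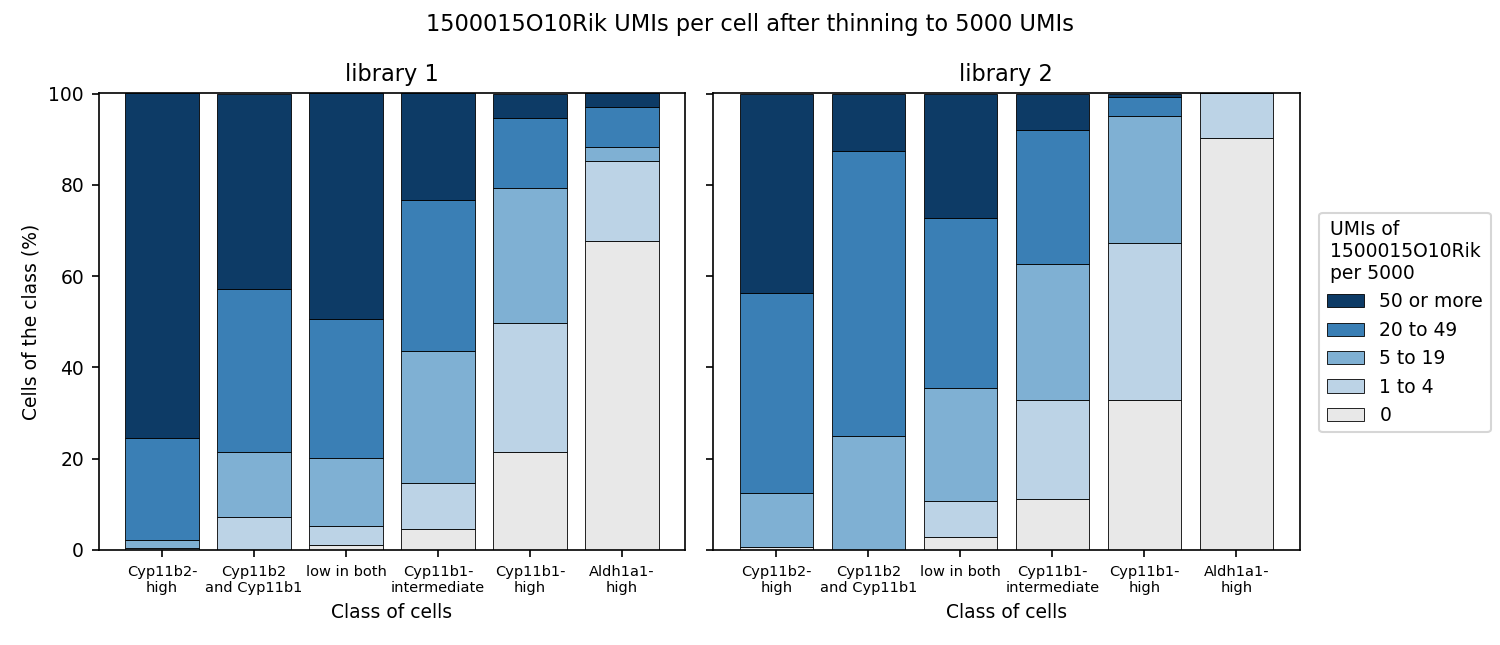
Share of cells (%) of each cortical class by the number of 1500015O10Rik UMIs left after thinning to 5000 UMIs per cell, in library 1 (left) and library 2 (right), from 0 (grey) to 50 or more (dark blue). The dark part shrinks from 75.5% and 43.7% in Cyp11b2-high cells to 5.31% and 0.772% in Cyp11b1-high cells, and the grey part reaches 67.6% and 90.3% in Aldh1a1-high cells.

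The variation between cells beyond counting error also differed by class. The coefficient of variation left after the Poisson part was taken out of the thinned counts was 0.392 in Cyp11b2-high cells of library 1 and 0.532 in library 2. It was 0.656 and 0.744 in cells low in both genes, and 1.52 and 1.63 in Cyp11b1-high cells. Among features with at least 4 UMIs per thinned cell, 1500015O10Rik had the largest value of 175 in Cyp11b1-high cells of library 1 and the second largest of 164 in library 2, where the medians were 0.353 and 0.370. In library 2 its own mean in that class was 4.76 UMIs, near the limit of 4. In cells low in both genes it was the 7th of 173 and the 3rd of 157. In Cyp11b2-high cells it was the 19th of 177 and the 8th of 152. These places are a description, since the gene was chosen by its levels across these same cells. Cyp11b1-high cells were also split at 1000 CPM of 1500015O10Rik itself. The 209 and 74 cells at or above it had median Wnt4 levels of 1766 and 1565 CPM, against 650.1 and 621 in the others. Their median Star was lower, at 2144 and 2450 CPM against 2848 and 3217. Their median depth was greater, at 17721 and 16528 UMIs against 15731.5 and 15227. Wnt4 is among the genes found below to track 1500015O10Rik across cortical cells, so its difference adds no separate evidence.

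Depth differed between classes and mostly fell along the order of the levels. Median UMIs per cell were 21284 and 19575 in Cyp11b2-high cells and 18626.5 and 15990 in cells low in both genes. They were 19539 and 17958.5 in the class with both genes and 18523 and 15256 in Cyp11b1-intermediate cells. Cyp11b1-high cells had 16907 and 15440, and Aldh1a1-high cells had 18295 and 14718. Exceptions to the order were the class with both genes, Aldh1a1-high cells in library 1 and Cyp11b1-high cells in library 2. Within cells low in both genes, the fifth with the fewest UMIs had 7829 and 5937 CPM and the fifth with the most had 11215 and 7811, though the highest value in library 1 was 12792 in the fourth. With each cell thinned to 5000 UMIs the log2 difference of Cyp11b1-high from Cyp11b2-high cells was -2.97, against -2.84 unthinned. With cells of at least 10000 UMIs it was -2.76. Thinning leaves the expected CPM of a cell unchanged, so it cannot remove a link between level and original depth. Across thinned cortical cells, Pearson's r of the gene (log1p of UMIs) with log original depth was 0.23 in library 1 and 0.16 in library 2. The part of depth in the class differences was not tested. Cells of the low class with at least 3 detected cell cycle genes (101 and 34 cells) had 8650.0 and 7050 CPM, against 10946 and 7125 in the rest of the class, at median depths of 23056 and 18624 against 18524 and 15880 UMIs.

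In leukocytes most cells had no UMI of the gene. Cells were taken as leukocytes from at least 4 of 20 leukocyte genes and 1000 CPM of the list, and as lymphoid or myeloid by the larger of 2 marker sums. No UMI was found in 20 of 29 lymphoid cells of library 1, 24 of 28 of library 2, 42 of 63 myeloid cells of library 1 and 42 of 48 of library 2. The median cell was at 0 CPM in each. Summed levels were nonetheless 3936 and 88.5 CPM in lymphoid cells and 1242 and 732 in myeloid cells, because few cells held nearly all UMIs.

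In library 1, 5 cells held 99.4% of the UMIs of the lymphoid class and 95.2% of those of the myeloid class. The 3 lymphoid cells at or above 1000 CPM in library 1 had a median of 19758 UMIs, 1653 CPM of Star and 2471 CPM of Wnt4. The other 26 had medians of 3040 UMIs and 0 CPM of both. The 6 such myeloid cells had a median of 13362 UMIs, 1891 CPM of Star and 1487 of Wnt4, against 6330 UMIs and 0 CPM. The part of these steroidogenic RNAs and depths in the leukocyte levels was not tested. Per UMI of Star, myeloid cells had 2.42 and 2.43 UMIs of 1500015O10Rik lymphoid cells 6.09 and 1, and cortical cells 3.63 and 2.17.

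Leukocytes were set beside Aldh1a1-high cells as cells of another lineage, and whether they express the gene was not tested. After thinning, 17.5% of 40 myeloid cells in library 1 (7.34 to 32.8) and 8.70% of 23 in library 2 (1.07 to 28.0) had a UMI, with 23 and 25 shallower cells left out. Of lymphoid cells deep enough to be thinned, 3 of 7 and 1 of 5 had one. The Aldh1a1-high shares of 32.4% and 9.68% came from cells with median depths of 18295 and 14718 UMIs, against 6519 and 4853 in all myeloid cells. The myeloid cells include the deep ones with Star and Wnt4 just described, and how much of the myeloid share they account for was not tested. In library 1, 6 of 34 Aldh1a1-high cells nonetheless reached 1000 CPM. They had medians of 24133 UMIs, 1376 CPM of Wnt4 and 2459 of Star, against 18014 UMIs, 22.6 and 3303 CPM in the other 28. No Aldh1a1-high cell of library 2 reached 1000 CPM of 1500015O10Rik. Of the 20 leukocyte genes, none had a UMI in the Aldh1a1-high cells of library 1 and 6 had one in those of library 2, summing to 13.9 CPM.

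Genes that track 1500015O10Rik were ranked by Pearson's r across cortical cells thinned to 5000 UMIs (log1p of UMIs, 4365 cells of library 1 and 1601 of library 2). Among 6062 genes with at least 0.1 UMI per thinned cell, each was placed by the smaller of its 2 library values. Cells of a library share its depth, free RNA and class mix, and r is given as a description. The median gene had an r of -0.01 in library 1 and 0.00 in library 2. In all, 18 genes exceeded 0.3 in both libraries and 13 lay below -0.3.

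The closest gene was Vsnl1, a neuronal calcium sensor known as a zona glomerulosa marker, with r of 0.57 and 0.65. Dab2, an endocytic adaptor and another marker of that zone, followed with 0.56 and 0.66. Tmsb4x, which encodes the actin-binding thymosin beta 4, had 0.56 and 0.54. After Hmgb3, a chromatin protein (0.47 and 0.52), and Eno3, an enolase of glycolysis (0.45 and 0.49), came Wnt4, a WNT ligand of the outer cortex (0.44 and 0.45). Cpe, the carboxypeptidase that trims peptide hormones after convertases have cut them, had 0.43 and 0.52. Nsf, an ATPase of vesicle fusion, Zfand5 and Ldhb, a lactate dehydrogenase subunit, completed the list with values from 0.41 to 0.47.

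At the other end stood Akr1cl, an aldo-keto reductase, with r of -0.54 and -0.62, and Cyp11b1 with -0.52 and -0.63. Cyp11b1 was used to form the classes but not in this ranking. Anxa5, a phospholipid-binding annexin, had -0.44 and -0.49, and Prss35, a serine protease homolog, -0.42 and -0.46. Acsbg1, an acyl-CoA synthetase, Gstm1, a glutathione transferase, Me1, the malic enzyme, Tmem176a, Abca1, a cholesterol exporter, and Tsc22d1 lay between -0.33 and -0.44. Reads of Gstm1 may be shared with close paralogs. Cyp11b2 had 0.27 and 0.32 and was the 28th gene from the top. Other markers of the zona glomerulosa were uneven. Agtr1a had 0.35 and 0.38 and Agtr1b 0.23 and 0.30, but Hsd3b6 had 0.05 and 0.06 and Shh 0.00 and -0.06. Zona fasciculata markers other than Cyp11b1 were weaker than it. Abcb1b had -0.19 and -0.30, Mrap -0.05 and -0.12, Mc2r -0.05 and 0.00, and Akr1b7 0.16 and 0.01.

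With class means taken out, so that only differences inside the classes counted, the first 5 places were held by Vsnl1 (0.48 and 0.49), Dab2 (0.44 and 0.47), Tmsb4x (0.50 and 0.41), Eno3 (0.39 and 0.38) and Hmgb3 (0.39 and 0.37). The last were Akr1cl (-0.45 and -0.47), Anxa5 (-0.33 and -0.32), Prss35 (-0.32 and -0.27), Abca1 (-0.27 and -0.26) and Gstm1 (-0.31 and -0.25). These 10 genes were also among the 20 named over all cells. The r of Cyp11b1 was then -0.15 and -0.18. Cyp11b1 limits form the classes, so taking class means out narrows the range of Cyp11b1 by construction. Its r inside the classes therefore cannot be set against those of genes that did not form them.

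**Figure D4:**
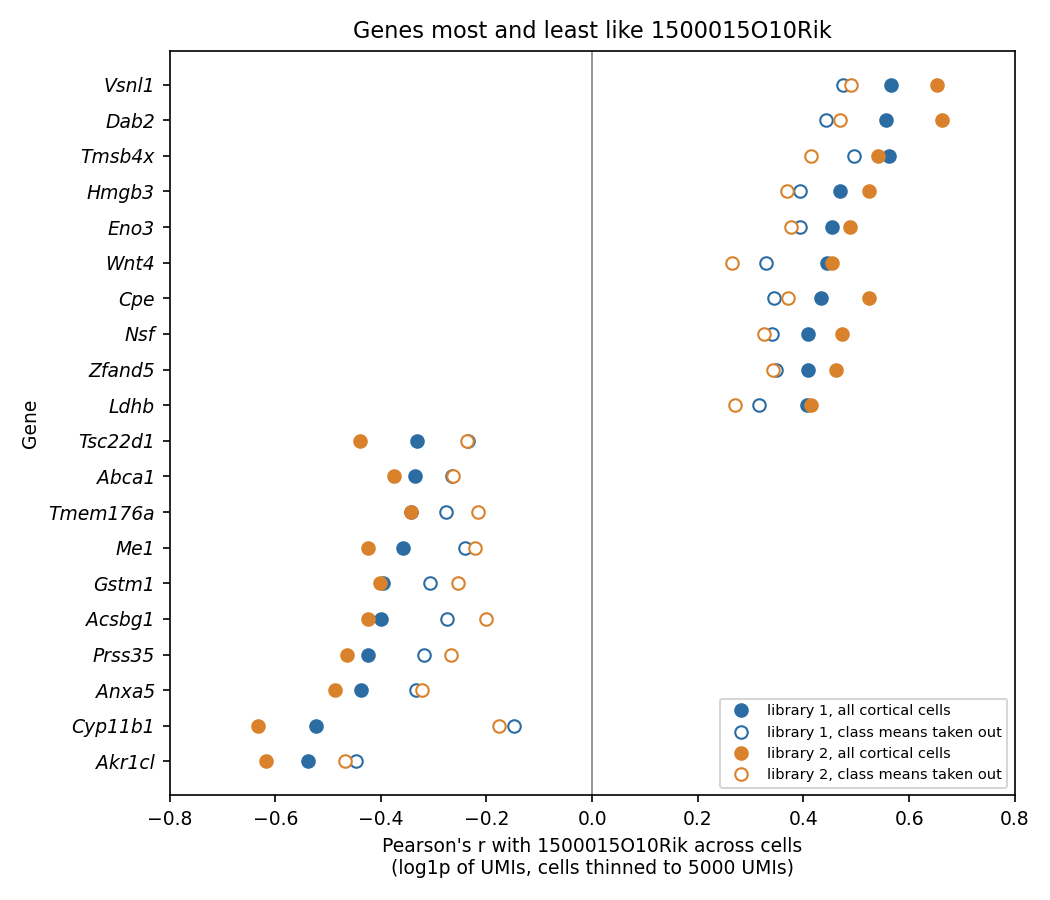
Pearson's r with 1500015O10Rik across thinned cortical cells for the 10 genes most like it and the 10 least like it, in library 1 (blue) and library 2 (orange), over all cortical cells (filled) and with class means taken out (open). Vsnl1 and Dab2 stay at or above 0.44 in every setting drawn. Cyp11b1 moves from -0.52 and -0.63 to -0.15 and -0.18, but it forms the classes, so taking class means out narrows its range.

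Across the classes these genes had unequal profiles. Vsnl1 went from 809 CPM in Cyp11b2-high cells of library 1 to 150.1 in Cyp11b1-high and 77.2 in Aldh1a1-high cells, and in library 2 from 1030.05 to 126 and 9.93. Unlike 1500015O10Rik, Vsnl1 and Dab2 were higher in Cyp11b2-high cells of library 2 than of library 1, with Dab2 at 2863 and 1899 CPM. Wnt4 stood at 2086 and 1727 CPM in Cyp11b2-high cells and at 2371 and 2160.2 in cells low in both genes. That difference did not pass in the model described below (log2 difference 0.20, model SE 0.17, edgeR adjusted p 0.493). Cpe differed less, from 2581 and 2585 CPM in Cyp11b2-high cells to 1907 and 1505 in Aldh1a1-high cells. Akr1cl ran the opposite way, from 491 and 546 CPM to 3940.07 and 4742.

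**Figure D5:**
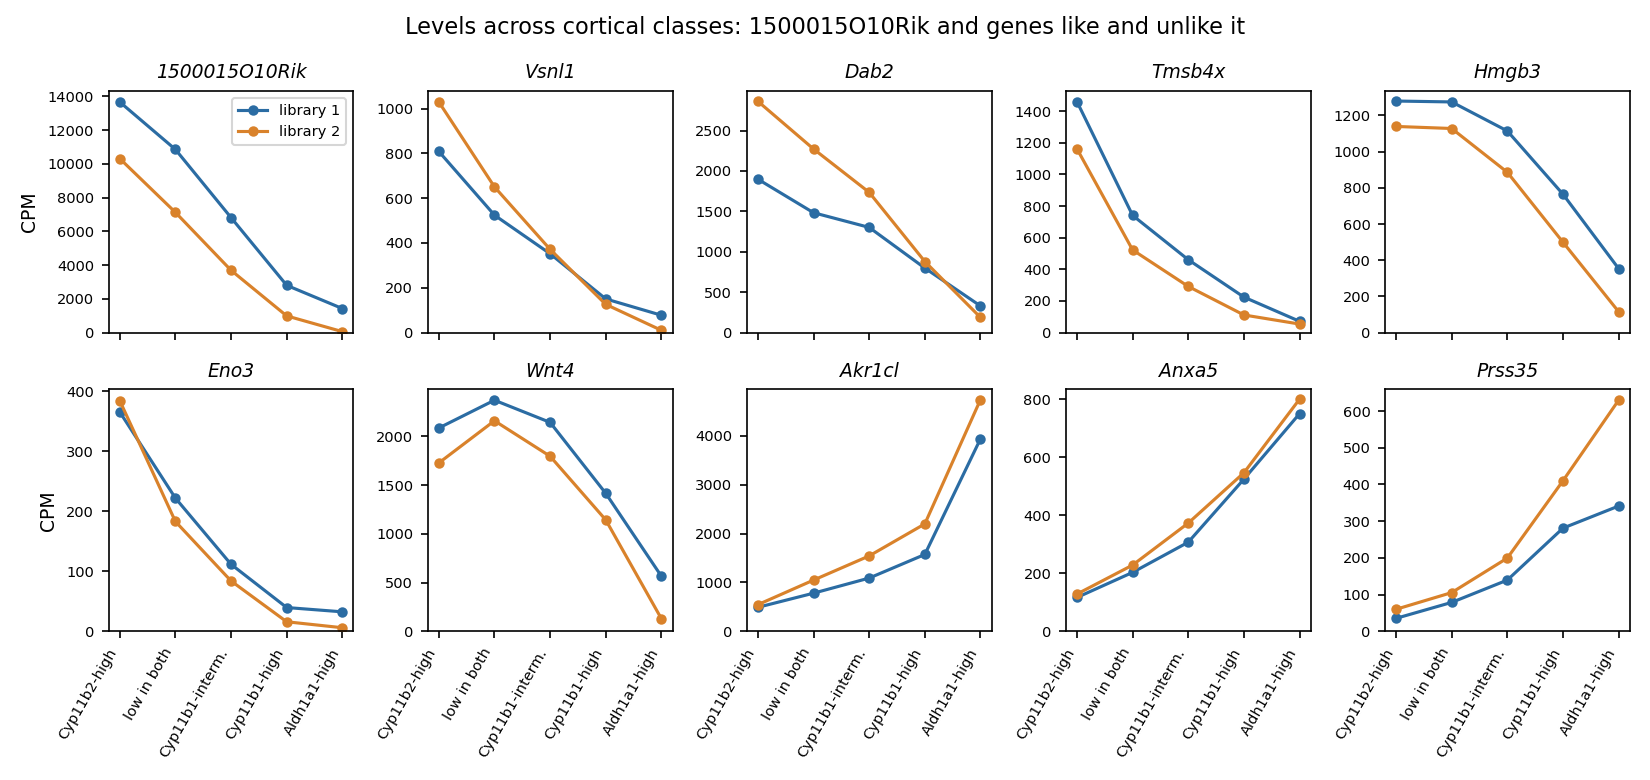
Level (CPM of summed UMIs, linear axes from 0) of 1500015O10Rik, 6 genes that track it and 3 that run against it, in 5 cortical classes of library 1 (blue) and library 2 (orange). 1500015O10Rik runs from 13661 and 10309 CPM in Cyp11b2-high cells down to 1422 and 53.6 in Aldh1a1-high cells, with library 1 above library 2 throughout, and Akr1cl runs up from 491 and 546 CPM to 3940.07 and 4742.

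Where 1500015O10Rik stands among all genes was read from a model of class sums with a library term (edgeR quasi-likelihood, 11632 genes, 10 sums). Its fitted log2 difference was -2.97 for Cyp11b1-high against Cyp11b2-high cells, and 40 of the 11632 genes had a larger fall. Among 1850 genes with a fitted average over 100 CPM it had the 4th largest fall. For Aldh1a1-high cells its fitted value was -4.43, with 267 of the 11632 genes falling more and the 3rd largest fall of those 1850. For cells low in both genes it was -0.51, with 524 genes falling more and the 56th place among the 1850. The median gene was at 0.01, -0.05 and 0.02. Because 1500015O10Rik was chosen by its levels across these same cells, a high place among all genes follows in part from that choice.

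Among genes for reported augurin receptors, Ly96 was the one above 10 CPM in cortical classes, and among the proteases Furin and Pcsk5 stood highest. Of 7 receptor genes, 3 passed the filter on low counts (Scarf1, Ly96 and Cd14) and Olr1, Cd36, Stab1 and Tlr4 did not. Of 8 protease genes, 5 passed it, and the convertases Pcsk1 and Pcsk2 and the thrombin gene F2 did not. In Cyp11b1-high against Cyp11b2-high cells, 31.1% of all genes tested passed the threshold (edgeR adjusted p under 0.05), 14.2% higher and 17% lower. The proteases counted 1 higher and 2 lower, with a median log2 difference of -0.04, and the receptors 1 higher, with a median of -0.09.

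Furin, the convertase of the secretory pathway, stood at 162 and 198 CPM in Cyp11b2-high cells and at 115 and 108 in Cyp11b1-high cells. It was lower in both libraries (-0.76 ± 0.08 on the log2 scale, edgeR adjusted p 4.31e-07). This ± value and those of list genes below are model SEs, from a spread estimated over all 10 class sums and with other genes. They are not the spread of the one difference between the 2 libraries. Pcsk5, another convertase of the furin family, stood at 211 and 331 against 173 and 252 CPM (-0.44 ± 0.07, edgeR adjusted p 3.05e-05). That call was lost without the library term (edgeR adjusted p 0.295). Pcsk6 had no UMI in Cyp11b2-high cells and 12 in Cyp11b1-high cells of both libraries together. Its observed level there was 2.67-fold above a floor of 3 UMIs over the Cyp11b2-high group. That ratio leaves out the counting error of the 12 UMIs. Its call was lost without the low-count filter, without the library term and with doubled class limits (edgeR adjusted p 0.0706, 0.0914 and 0.222). Pcsk7 (-0.04 ± 0.14) and Pcsk4 (0.69 ± 0.47) did not pass.

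In Aldh1a1-high against Cyp11b2-high cells, 29.8% of all genes tested passed, 13.7% higher and 16.1% lower. The proteases counted 1 higher and 3 lower, with a median of -1.13. Pcsk5 was lower, with 57 and 44 UMIs and 87.4 CPM in library 2 (-1.64 ± 0.14, edgeR adjusted p 9.2e-09). Furin (-0.53 ± 0.15, edgeR adjusted p 0.00883) and Pcsk7 (-1.19 ± 0.34, edgeR adjusted p 0.0105) were also lower, but each missed the threshold without the library term, with doubled limits and with thinned cells (edgeR adjusted p from 0.0975 to 0.769). Pcsk6, with 9 UMIs, was higher (edgeR adjusted p 0.000407). Its observed level was 20.2-fold above the same floor, without the counting error of the 9 UMIs.

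In cells low in both genes, 13.7% of all genes tested passed against Cyp11b2-high cells, 6.01% higher and 7.68% lower. Of 5 proteases, Furin (139 and 135 CPM, -0.42 ± 0.07, edgeR adjusted p 0.000342) and Pcsk5 (198 and 283 CPM, -0.21 ± 0.06, edgeR adjusted p 0.0216) were lower. Without the library term neither passed (edgeR adjusted p 0.596 and 1), and with doubled limits neither passed (edgeR adjusted p 0.0919 and 0.371). Pcsk5 also missed the threshold with thinned cells (edgeR adjusted p 0.0705) and in DESeq2 (adjusted p 0.144).

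Cd14, Cd36 and Stab1 stood higher in myeloid cells than in cortical classes. Cd14, a co-receptor of the lipopolysaccharide receptor, stood at 125 and 141 CPM in myeloid cells, against 2.24 and 1.75 in Cyp11b2-high and 4.75 and 5.95 in Cyp11b1-high cells. The latter difference passed (log2 difference 1.23 ± 0.39, edgeR adjusted p 0.0189), but not without the library term or with halved or doubled class limits (edgeR adjusted p 0.071, 0.0849 and 0.429). Cd36, a scavenger receptor for lipids, had 77.9 and 64.8 CPM in myeloid cells, and Stab1, a scavenger receptor of macrophages, 95.7 and 49.6. Olr1, Stab1 and Tlr4 had no UMI in Cyp11b2-high cells of either library. Ly96, the partner of Tlr4, stood at 42.3 and 38.1 CPM in myeloid cells, close to its cortical level. It was at 37.7 and 36.1 CPM in Cyp11b2-high cells and at 38.7 and 35.5 in Cyp11b1-high cells (-0.09 ± 0.11, edgeR adjusted p 0.607). It was lower in Aldh1a1-high cells (17.0 and 19.9 CPM, -1.09 ± 0.27, edgeR adjusted p 0.00406), a call lost with thinned cells (edgeR adjusted p 0.75). In cells low in both genes against Cyp11b2-high cells, Scarf1 (-0.24 ± 0.40), Ly96 (-0.18 ± 0.10) and Cd14 (0.27 ± 0.38) did not pass (edgeR adjusted p 0.755, 0.262 and 0.707).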

How the data were processed

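UMI counts per gene and cell barcode were deposited by the authors, made with Cell Ranger on mm10 per the submitters' processing notes (version 3.1.0 per the file headers); the rule behind the deposited barcodes was not stated. The members, lists and classes were chosen with earlier results of these data known. Cells had at least 1000 UMIs, 500 genes and at most 30% mitochondrial UMIs (148 and 276 barcodes removed), and the highest scrublet scores (scanpy 1.11.5) were removed at 0.8% per 1000 barcodes (203 and 42). Free RNA was not subtracted. Classes with at least 20 cells in each library (5 of 6) were summed and fitted in edgeR 4.0.16 (R 4.3.3) with class and library terms, TMM and filterByExpr, leaving 4 residual degrees of freedom; Benjamini-Hochberg adjustment ran over all genes. P-values rest on how class differences varied between 2 libraries, with that spread estimated over all fitted classes and with other genes. The model was also run on simulated counts. These had a common spread for all genes and few changed genes, unlike the data, so that run cannot vouch for the calls. Named genes were the fixed augurin lists, the class genes and, by likeness, the 10 highest and 10 lowest r (5 and 5 with class means taken out), without mitochondrial, ribosomal, reporter, Gm and Rik features. Alternatives covered normalization, DESeq2 1.42.0, filters, depth, doublets, class limits, correlation measure and each library alone.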

Additional observations from a re-analysis of the deposited data

How the results depend on the processing

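The log2 differences of 1500015O10Rik from Cyp11b2-high cells, for the 4 classes named here, kept their direction under the alternatives run. Of the 31 alternative values that use both libraries, 28 moved by less than the SD between the libraries. That SD was 0.14 for cells low in both genes and 3.06 for Aldh1a1-high cells, so staying within it says little for the latter. The limit of 10000 UMIs was not applied to leukocytes. With doubled class limits Cyp11b1-high cells differed from Cyp11b2-high cells by -3.82 (from -2.84). Leukocytes differed by -4.64 with thinned cells and by -4.70 with CPM averaged over cells (from -3.56); thinning left out the shallower leukocytes. In single libraries the values ran from -3.39 to -2.29 for Cyp11b1-high cells, -0.53 to -0.33 for cells low in both genes, -7.59 to -3.26 for Aldh1a1-high cells and -4.28 to -2.83 for leukocytes. Of the 20 genes named by likeness, 17 to 20 were named again under each alternative. Counts of genes called were 3619, 3464 and 1592 for Cyp11b1-high, Aldh1a1-high and low-in-both cells against Cyp11b2-high cells. Without the library term, which is the replicate block, they were 804, 1949 and 22; with thinned cells 1777, 1643 and 659. Doubled class limits gave 2143 and 553 for Cyp11b1-high and low-in-both cells, and DESeq2 gave 915 for the latter; thinned cells hold fewer UMIs by construction, and the cause of the other moves was not tested. Of the calls of single list genes, 20 were lost, 1 was gained (Cd14 in Aldh1a1-high cells, DESeq2 adjusted p 0.0419) and 153 stayed on their side of the threshold; none changed direction among called genes. A single library leaves no residual degrees of freedom, so genes were not called in 1 library alone. The Aldh1a1-high class holds 34 and 31 cells, and thinning left out 45 of 93 and 48 of 77 leukocytes for low depth.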
